A study of Mus musculus with 4 samples.

Results

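The interferon-stimulated genes described here are 33 genes listed by name: sensors of foreign RNA, the transcription factors of the interferon response and the antiviral effectors they switch on. A row of that name was found for 31 of them among the 32287 gene features of both single-cell libraries, whereas Mx1 and Mx2 had none under these names. All 31 were followed, whatever their level, one by one and as a sum, across cell classes that were named from cell type markers, with the interferon genes left out of the clustering.

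The study delivered a pool of enhancer reporters in an adeno-associated virus (AAV) intravenously to Cx30-tdTomato mice, in which tamoxifen-induced Cre expressed from the astrocyte gene Cx30 (connexin 30) switches on the red fluorescent protein tdTomato, and asked which enhancers act in injured astrocytes. One group received a contusion of the spinal cord and was sampled 3 days later, and the other was uninjured, and both carried the virus, the reporter allele and the tamoxifen exposure, so that neither is a virus-free control. The mice were young adults, and 5 mm segments at the injury level were dissociated and sorted as whole tdTomato+ cells for Chromium 3′ profiling. The animals of a condition were pooled into 1 library, so the condition, the library and the pool of animals cannot be told apart, no test between conditions is possible, and every interval below covers counting error only.

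Interferons are cytokines, and those of type I are released when a cell senses viral or misplaced nucleic acid. Type I interferon binds the receptor pair Ifnar1 and Ifnar2, whose kinases Jak1 and Tyk2 activate Stat2. With Irf9 it is part of a complex that binds the interferon-stimulated response element (ISRE) in promoters of the responding genes, while type II interferon acts through gamma-activated sites (GAS). Astrocytes, microglia and brain endothelium are all known to respond.

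The injured library held 879 cells and 8499672 unique molecular identifiers (UMIs, each a captured 3′ end) in genes, at a median of 6816 per cell, and the uninjured library 4159 cells and 15543460 UMIs at a median of 3343. Of these UMIs, 6364 and 4756 belonged to the listed genes. The libraries differed in sex composition, with 35.8% of injured and 66.6% of uninjured cells scored as male and a UMI of Xist, which female cells express, in 28.7% and 0.120%. A cell was scored as male when it had a UMI of a Y-linked gene and none of Xist, so shallow cells may go unscored. The study's methods name equal numbers of both sexes in each condition, which the Xist share of the uninjured library goes against. Values from male cells alone are therefore given for members 2-fold apart over all cells that turned or came within 2-fold in them. They shared 7 cell barcodes. Astrocyte-like cells, with all 9 astrocyte markers detected, numbered 407 in the injured and 2849 in the uninjured library, so that the sort also held many other cells. Endothelial-like (70 and 26), ependymal-like (144 and 31), fibroblast-like (43 and 95) and microglia-like (126 and 31) cells were also compared, while oligodendrocyte precursor cell (OPC)-like (46 and 14) and mural-like cells (13 and 3) were too few. A further 30 injured and 1110 uninjured cells, which mixed astrocyte and neuron transcripts, stayed unnamed. Of these, 8 injured and 795 uninjured cells lay in a cluster that scored best as astrocyte, with all 9 markers. It stayed unnamed because the neuron marker Nefl was among its leading genes. In the unnamed uninjured cells astrocyte markers summed to 12889 CPM and neuron markers to 539 CPM. Within the astrocyte-like class, 81.3% of injured cells fell into 1 cluster that held 14 uninjured cells, led by Tgm1, Lcn2 and Gfap, whereas most uninjured cells lay in 3 others, so that the comparison is between different clusters of the class.

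The letters of the ISRE were read in the promoters of the listed genes to show what sequence the members share. RefSeq promoter windows of 300 bases (250 before and 50 after the start, GRCm38.p6) existed for 24 of the 33 genes. The ISRE letters, GAAA and again GAAA with any 2 bases between them, on either strand and with overlapping matches allowed, were present in 14 of these 24 windows (58.3%), against 3.44% of all 32851 windows and 3.99% of symbols. The GAS letters TTCNNNGAA were present in 6 of 24 (25%), against 8.30% of windows. The stretches below carry the ISRE of 6 members discussed first for astrocytes and of Stat2, which went the other way. They run 5′ to 3′ along the strand of the gene, with the matching letters in capitals.

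Isg15, chr4:156200855-156200916, minus strand: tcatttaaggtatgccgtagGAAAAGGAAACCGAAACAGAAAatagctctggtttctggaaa
Bst2, chr8:71537567-71537622, minus strand: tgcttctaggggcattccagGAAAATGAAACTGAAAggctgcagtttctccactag
Ifit1, chr19:34640765-34640833, plus strand: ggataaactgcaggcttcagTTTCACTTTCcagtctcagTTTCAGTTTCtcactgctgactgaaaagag
Ifit3, chr19:34583353-34583436, plus strand: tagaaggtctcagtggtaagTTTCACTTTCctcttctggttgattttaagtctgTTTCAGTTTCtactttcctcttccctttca
Ifit3b, chr19:34607749-34607832, plus strand: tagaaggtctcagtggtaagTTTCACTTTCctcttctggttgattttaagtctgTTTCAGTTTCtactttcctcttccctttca
Rsad2, chr12:26456543-26456592, minus strand: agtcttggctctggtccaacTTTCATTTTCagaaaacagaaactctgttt
Stat2, chr10:128270256-128270305, plus strand: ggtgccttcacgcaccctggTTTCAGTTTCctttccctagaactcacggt

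The Isg15 promoter held 3 overlapping matches between 78 and 57 bases before the start, Bst2 a pair that also overlapped, and Ifit1 and Ifit3 a pair each, spaced apart. The Ifit3 and Ifit3b stretches were identical. Of the 50-base stretches of the whole Ifit3 transcript, 51.2% also occurred in Ifit3b. A read from these could come from either of the neighbours on chromosome 19. How such reads were counted, and the shared part of the 3′ end alone, were not examined. In the other 7 windows with a match (Ddx58, Eif2ak2, Gbp2, Gbp3, Ifih1, Oas1a and Oas3) the letters lay between 75 bases before and 42 bases after the start.

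Summed over the 31 genes, endothelial-like cells had the highest level of the classes that could be compared in both libraries, and astrocyte-like and ependymal-like cells the lowest. Levels are in CPM, the counts per 1000000 gene UMIs of the class, which is not scaled for gene length because each UMI marks a 3′ end. In the uninjured library the sum was 269 CPM in astrocyte-like cells (259 to 280, exact Poisson 95% interval) and 2396 CPM in endothelial-like cells, 8.90 times as high (7.79 to 10.1). Microglia-like cells stood at 1095 CPM, 4.06 times the astrocyte-like level, and fibroblast-like cells at 782 CPM, 2.90 times. Ependymal-like cells, at 246 CPM, were within counting error of the astrocyte-like level (0.913, 0.648 to 1.25).

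In the injured library the order was the same. Astrocyte-like cells stood at 475 CPM (447 to 505), and endothelial-like cells at 1875 CPM, 3.94 times as high (3.64 to 4.27). Microglia-like (984 CPM, 2.07 times) and fibroblast-like cells (941 CPM, 1.98 times) were next to each other with overlapping intervals, and ependymal-like cells were lower at 278 CPM (0.584, 0.523 to 0.652). OPC-like cells held 679 CPM injured and 496 uninjured, and mural-like cells 2239 CPM injured, from only 13 cells. A single cell carried 79 of the 190 member UMIs in the injured mural-like class, and without it the level was 1542 CPM.

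**Figure D1:**
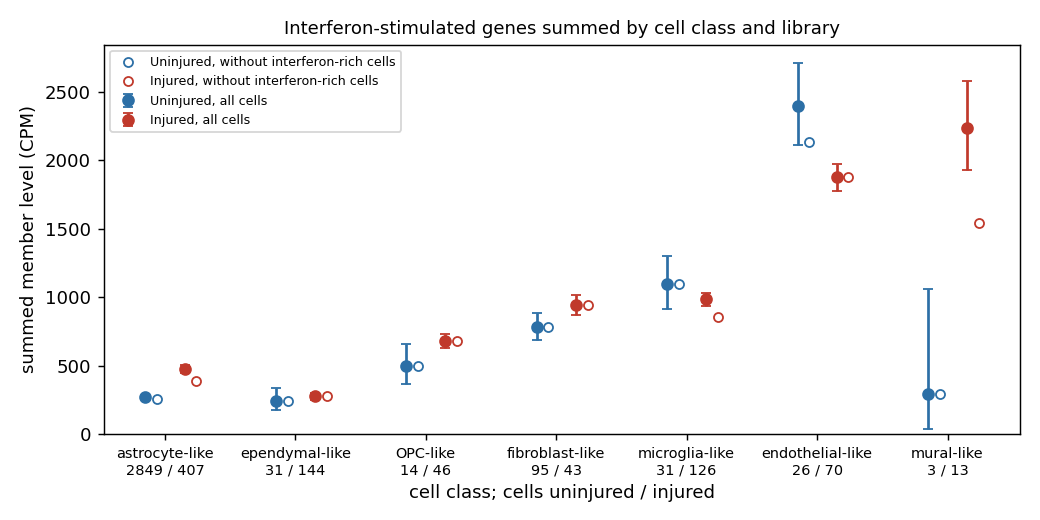
Summed level of the listed genes (CPM, linear axis) in each cell class of the uninjured (blue) and injured (red) library, with exact Poisson 95% intervals; open points leave out the cells richest in these genes, and cell numbers stand under each class. Astrocyte-like cells sit at 269 and 475 CPM, far under endothelial-like cells at 2396 and 1875 CPM.

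Between conditions, the sum was higher in injured astrocyte-like cells and lower in injured endothelial-like cells. The astrocyte-like ratio of injured to uninjured was 1.77 (1.64 to 1.90, exact conditional 95% interval), 1.49 without 6 cells unusually rich in these genes and 1.53 in male cells alone. The endothelial-like ratio was 0.782 (0.684 to 0.898), but it was 0.878 (0.759 to 1.02) without 2 rich cells, and in male cells, 20 and 14 in number, it turned to 1.07 (0.889 to 1.30). The fibroblast-like ratio was 1.20 (1.04 to 1.39), which turned to 0.621 (0.545 to 0.711) without limits on UMIs per cell. The ependymal-like ratio was 1.13 (0.814 to 1.61) and the microglia-like ratio 0.899 (0.751 to 1.08). Both intervals include 1, so no difference was detectable at this depth, and the microglia-like ratio without its richest cell was 0.782 (0.653 to 0.944).

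Gene by gene, 27 of the 31 members had 10 or more UMIs in astrocyte-like cells of both libraries together, and 12 of these were at least 2-fold higher in the injured library, on the log2(CPM + 1) scale, while none was 2-fold lower. Over all 14565 genes with that many UMIs, 13.3% were 2-fold higher and 8.87% 2-fold lower. The median log2 ratio was 0.65 over the 27 members and -0.01 over all genes. Without the rich cells, 6 of 26 members were 2-fold higher (Isg15, Gbp2, Bst2, Ifi27, Irf7 and Ifit2), against 13.2% of all genes, and none lower, against 8.89%. In male cells alone 6 of 24 were higher (Gbp2, Irf7, Bst2, Ifi35, Ifit2 and Ifit1), against 12.6%, and none lower, against 9.23%. The fold is a size and no test was possible. Oas1a and Oas2 had 1 UMI each, both in the uninjured library, and Oas3 and Zbp1 none in either.

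Among members of the ISG15 system, Isg15, a ubiquitin-like protein that is conjugated to others during the response, had 40 UMIs in the injured and 8 in the uninjured library, or 18.1 and 0.775 CPM. The ratio was 23.4 (10.8 to 57.8) and remained 21.6 without the rich cells. Its 40 injured UMIs came from 22 cells, at most 9 in 1 cell, and in male cells there were 6 against 2. Trim25, an E3 ligase that modifies the sensor encoded by Ddx58, stood at 11.8 against 8.62 CPM (26 and 89 UMIs). Usp18, the protease that removes Isg15 from its targets and damps receptor signalling, had 3 against 27 UMIs, or 1.36 and 2.62 CPM, with an interval of 0.101 to 1.69 around a ratio of 0.519. Only Isg15 of these genes was 2-fold apart between the libraries.

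The IFIT family, which binds viral RNA and blocks its translation, was 2-fold higher in all 4 members, but 3 of them were no longer so without the rich cells. Ifit1 had 22 against 17 UMIs (9.95 and 1.65 CPM, ratio 6.04, 3.07 to 12.1), Ifit3 82 against 89 (37.1 and 8.62 CPM, ratio 4.30, 3.15 to 5.88) and Ifit3b 33 against 71 (14.9 and 6.88 CPM, ratio 2.17, 1.39 to 3.33). Without the rich cells these ratios were 1.88, 1.68 and 1.59. In male cells alone Ifit3 stood at 12.1 against 8.05 CPM (12 and 64 UMIs, ratio interval 0.735 to 2.80), within 2-fold, and Ifit3b was level, at a log2 ratio of -0.0026. Ifit2 was spread more evenly, with 35 against 41 UMIs (15.8 and 3.97 CPM), a ratio of 3.99 (2.47 to 6.42) over all cells and of 3.54 without the rich cells. Counted together because their transcripts share sequence, Ifit3 and Ifit3b stood at 52.0 against 15.5 CPM (ratio 3.36, 2.62 to 4.29).

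The effectors that act on membranes and lipids differed in how widely they were found. Bst2 (tetherin, which holds budding virus at the cell surface) had 98 against 64 UMIs, or 44.3 and 6.20 CPM, a ratio of 7.15 (5.17 to 9.96). It was detected in 63 of 407 injured cells, kept a ratio of 7.84 without the rich cells, and in male cells stood at 47.2 against 5.79 CPM (8.16, 5.32 to 12.5). Rsad2 (viperin, an antiviral enzyme of the lipid droplet and endoplasmic reticulum) had 45 against 42 UMIs, or 20.4 and 4.07 CPM, a ratio of 5.00, but 35 of the 45 lay in 1 cell. Without the rich cells its ratio was 1.14 (0.484 to 2.41) and in male cells 1.29 (0.391 to 3.34), so that Bst2 was higher across many cells and Rsad2 was not.

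Ifi27, a small membrane protein of the response, was the most abundant member in this class by UMIs, with 238 against 524, or 108 and 50.8 CPM. Its ratio was 2.12 (1.81 to 2.48), 2.14 without the rich cells and 2.02 in male cells, there just short of 2-fold once 1 CPM was added, and it was found in 117 injured and 398 uninjured cells. Leaving Ifi27 out, the summed ratio for the class was 1.68. The GTPase Gbp2, a guanylate-binding protein, had 37 against 13 UMIs (16.7 and 1.26 CPM, ratio 13.3, 6.91 to 27.3), which became 8.65 without the rich cells and 13.3 in male cells. Its neighbour Gbp3 had 15 against 22 (6.79 and 2.13 CPM, ratio 3.18) and in male cells went the other way, at a log2 ratio of -0.81.

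Ifi44 was seen in few cells, with 9 UMIs injured and 5 uninjured (4.07 and 0.484 CPM, ratio 8.41, 2.53 to 31.9) and 3 and 1 in male cells. Ifi35 stood at 12.2 against 6.10 CPM (27 and 63 UMIs), a ratio of 2.00 (1.23 to 3.19) that was just short of 2-fold once 1 CPM was added, and in male cells a ratio of 2.99 (1.54 to 5.54). The apoptosis-linked Xaf1 (8.60 against 5.13 CPM, 19 and 53 UMIs), the ADP-ribosyltransferase Parp14 (8.14 against 4.84 CPM, 18 and 50 UMIs) and Samd9l (18.1 against 12.1 CPM, 40 and 125 UMIs) were nearer to each other. Samd9l had a ratio of 1.49 (1.02 to 2.15), and the intervals of the other pair included 1. Oasl2, of the oligoadenylate synthetase family, was at 5.88 against 4.55 CPM (13 and 47 UMIs), and the chaperone Rtp4 was lower at 9.50 against 12.9 CPM (21 and 133 UMIs). Both intervals included 1.

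The transcription factors differed among themselves. Irf7, which amplifies type I interferon production, had 11 against 12 UMIs, or 4.98 and 1.16 CPM, a ratio of 4.28 (1.71 to 10.6), and 5.86 without the rich cells. Irf1 stood at 8.14 against 5.04 CPM (18 and 52 UMIs) and Irf9 at 13.1 against 9.01 CPM (29 and 93 UMIs), with intervals that included 1. Stat2, part of the complex that binds the ISRE, was lower in the injured library, at 17.6 against 33.2 CPM (39 and 343 UMIs), a ratio of 0.531 (0.371 to 0.741), 0.521 without the rich cells and 0.582 (0.339 to 0.939) in male cells.

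None of the sensors of foreign RNA was 2-fold apart. Eif2ak2, the kinase PKR that halts translation on double-stranded RNA, stood at 27.1 against 38.8 CPM (60 and 401 UMIs), a ratio of 0.699 (0.524 to 0.919), and in male cells the interval reached 1.14. Ifih1 (MDA5) stood at 14.9 against 18.8 CPM (33 and 194 UMIs), Ddx58 (RIG-I) at 16.3 against 18.4 CPM (36 and 190 UMIs) and Dhx58 (LGP2) at 1.81 against 1.07 CPM (4 and 11 UMIs), each with an interval that included 1. In male cells Ifih1 turned to a ratio of 1.30. In the uninjured library Eif2ak2 and Stat2 ranked just after Ifi27 in UMIs, and in the injured library Bst2 and Ifit3 held these places.

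**Figure D2:**
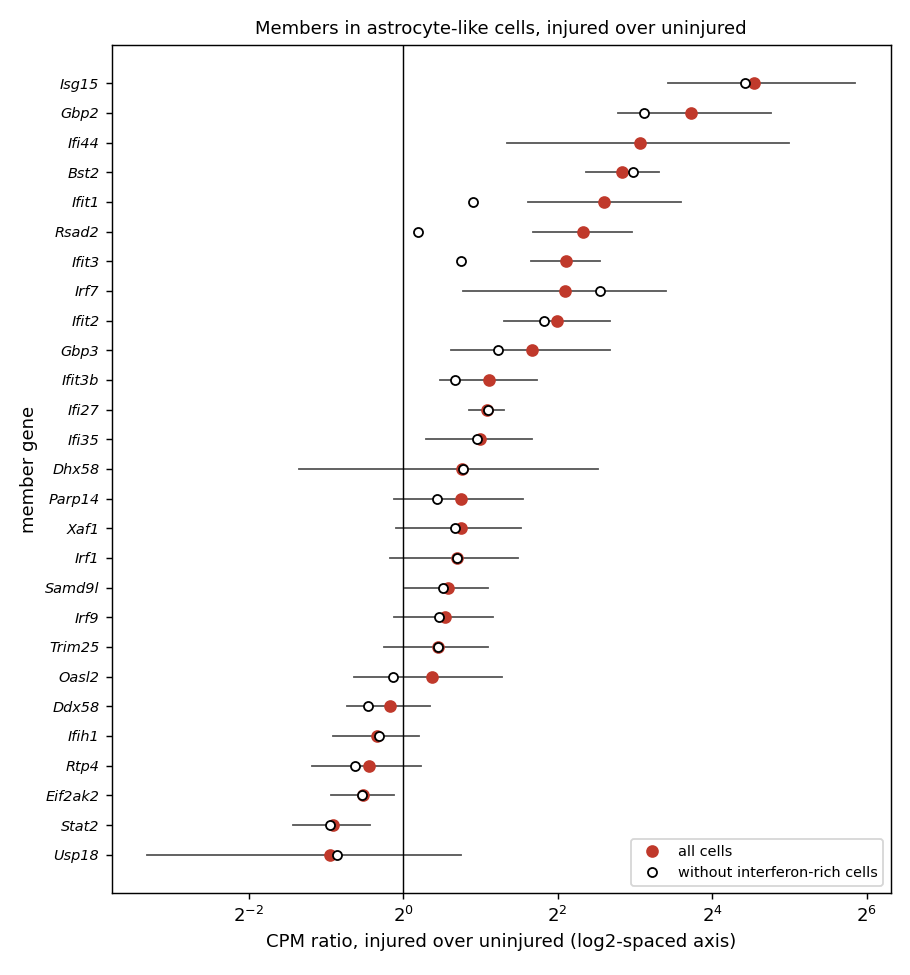
Ratio of injured to uninjured CPM for each member with 10 or more UMIs in astrocyte-like cells (log2-spaced axis), filled points for all cells with exact 95% intervals of counting error and open points without the rich cells; Ifi44 has no open point because its uninjured UMIs were then 0. Isg15, Gbp2 and Bst2 keep their place to the right, whereas Ifit1, Rsad2 and Ifit3 move from 6.04, 5.00 and 4.30 to 1.88, 1.14 and 1.68.

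The ISRE letters and these differences can be set side by side. Of the 12 members 2-fold higher, 11 had a promoter window and 8 of these held the letters, and of the 15 within 2-fold, 11 had a window and 4 held them (Stat2, Ifih1, Ddx58 and Eif2ak2). Stat2, the sequence of which is shown above, was among the lower genes although its window held a match 222 bases before the start, and in the 3 sensors the match lay after the start. Without the rich cells, 5 higher members had a window and 3 held the letters (Isg15, Bst2 and Gbp2), beside 9 of 16 within 2-fold. Ifit2, Irf7 and Ifi44 were higher over all cells and their windows held no match, which says only that these letters are absent there.

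Transcripts of microglia in the astrocyte-like cells were measured as a check on RNA carried between droplets. Of 9 microglial markers, 7 were detected in astrocyte-like cells of the injured library, and Tmem119 and Csf1r were at 0. The markers summed to 173 CPM there, with the highest at 114 CPM, and to 96.8 CPM in the uninjured library. Cells of this class holding a microglial UMI numbered 69 out of 407 after injury, while without injury there were 48 out of 2849. C1qb stood at 22.2 against 1.16 CPM, so microglial transcripts were more frequent in the injured library. C1qa reached 0.189% of its microglia-like level in injured astrocyte-like cells. None of 8 genes of microglia or macrophages read in the same way (Cx3cr1, C1qa, C1qb, C1qc, Tyrobp, Ctss, Csf1r and Lyz2) exceeded 0.677%. Bst2 reached 17.3%, Isg15 37.6% and Ifi27 133% of their microglia-like level in the same cells. Isg15 and Ifi27 were higher in injured endothelial-like cells, at 100 and 328 CPM, than in microglia-like ones, at 48.1 and 81.0 CPM. Bst2 was lower there, at 147 against 256 CPM. RNA carried from endothelial-like cells was not tested.

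The rich cells were those with at least 8 members detected and at least 5000 CPM of members, a limit set after the values were seen. There were 4 in the injured and 7 in the uninjured library. The first injured astrocyte-like cell held 137 member UMIs from 20 members among 6816 in all, led by Rsad2 with 35, Ifit3 with 28, Gbp2 with 10 and Isg15 with 9. The second held 60 from 13 members among 3185, led by Ifit3 with 25. Neither had a UMI of 7 microglial genes, and 6 and 2 of the 9 astrocyte markers were detected.

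The 4 rich uninjured astrocyte-like cells held 53, 11, 16 and 18 member UMIs, with Usp18, Ifit3, Ifit3b, Stat2 and Isg15 among their leading genes, so that cells of this kind were found without a contusion as well. An injured microglia-like cell was the richest of all, with 247 member UMIs from 28 members, led by Rsad2 with 48 and Isg15 with 26. The injured mural-like cell held 79, of which 33 were Ifit1 and 15 Ifit3, and a pair of uninjured endothelial-like cells held 22 and 21. The last, in an unnamed uninjured cluster, held 87 from 21 members.

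A separate set of 46 interferon-stimulated genes, which had no part in picking these cells, was also higher in the rich cells of every class but the mural-like one. The rich mural-like cell stood at 5900 CPM of these genes (4649 to 7385) and the other injured mural-like cells at 5348 CPM (4827 to 5909). In injured astrocyte-like cells these genes summed to 9699 CPM (7865 to 11832) in the 2 rich cells and 767 CPM in the others, and in uninjured ones to 5303 CPM in the 4 rich cells and 367 CPM in the others. Members and these genes had both been kept out of the clustering.

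**Figure D3:**
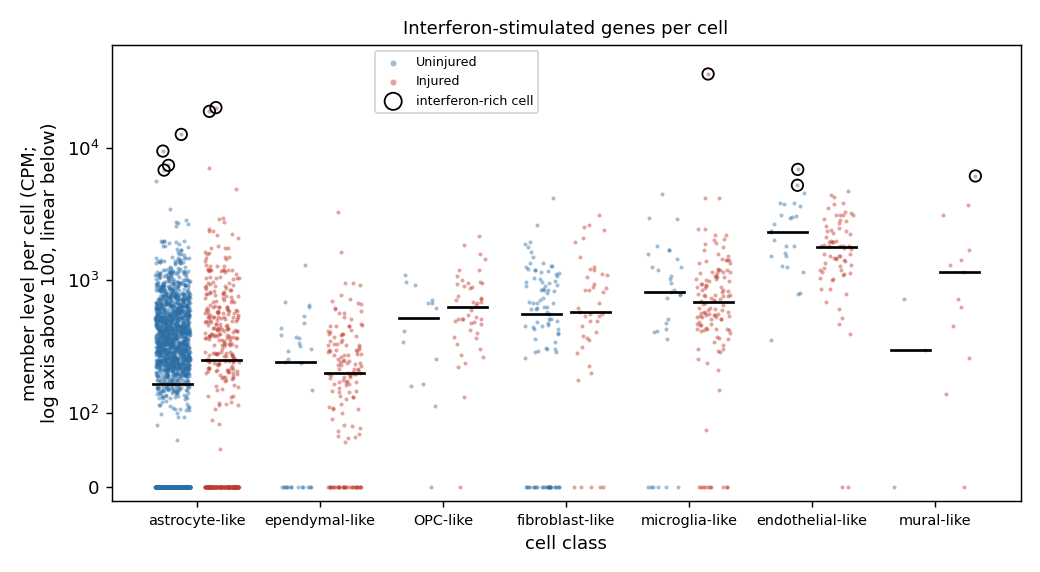
Summed level of the listed genes in each cell (CPM, log axis above 100 and linear below) by class, uninjured in blue and injured in red, with bars at the class median and rings around the rich cells. Most astrocyte-like cells lie under 1000 CPM with medians of 167 and 249 CPM, and the rings stand above 5000 CPM in astrocyte-like, microglia-like, endothelial-like and mural-like cells.

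Because detection follows depth, each cell was thinned to 1000 UMIs before cells were counted. Of injured astrocyte-like cells, 1.34% (0.437 to 3.10, Clopper-Pearson 95% interval, 373 cells used and 34 shallower ones left out) then had 3 or more members, and of uninjured ones 0.324% (0.148 to 0.613, 2782 used and 67 left out). Over 20 random thinnings the shares ranged from 0.536% to 1.88% and from 0.216% to 0.503%. Endothelial-like cells gave 26.9% injured (16.8 to 39.1) and 50% uninjured (29.9 to 70.1), so that cells with several members were common there and rare among astrocyte-like cells. At their own depths, the shares were 24.3% and 6.53% for astrocyte-like and 85.7% and 88.5% for endothelial-like cells.

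Injured astrocyte-like cells were not uniform. A finer clustering split them mainly into a group of 163 cells led by Tgm1 and Lcn2, the latter encoding lipocalin 2, and a group of 144 cells whose leading genes include C4b and Serpina3n, both markers of reactive astrocytes. The first group held all 9 astrocyte markers but did not reach the marker score that the naming rule asks for, and its median depth was 3324 UMIs against 6641. The groups are called here the Lcn2 and the Serpina3n group, but both genes were found in both. Lcn2 stood at 544 CPM in the first and 117 CPM in the second, and Serpina3n at 299 and 405 CPM, within 2-fold. Members summed to 768 CPM in the Lcn2 group and 328 CPM in the Serpina3n group, a ratio of 2.34 (2.05 to 2.68). Both rich cells lay in the Lcn2 group, and without them the values were 504 and 328 CPM, a ratio of 1.54 (1.33 to 1.78).

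Cells scored as male made up 19.6% of the Lcn2 group and 50.7% of the Serpina3n group. Cells with an Xist UMI were 13 of 163 and 47 of 144, so most of the Lcn2 group was scored as neither. That group was also shallower, so these shares do not give the sex composition of the groups. In male cells alone, 32 and 73 in number, the ratio was 1.52 (1.20 to 1.92), and in cells with an Xist UMI 3.77 (3.01 to 4.73). The latter were only 13 and 47 cells, with 188 and 137 member UMIs. Rich cells were not left out of these ratios, and neither rich cell was scored as male, so single cells may weigh heavily in the Xist ratio. Leaving out cells with any UMI of the microglial genes gave 2.75.

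Of 23 members with 10 or more UMIs in these groups, 12 were 2-fold higher in the Lcn2 group, against 12.1% of all genes, and none 2-fold lower, against 23.8%. Without the rich cells 3 of 18 were (Isg15, Irf9 and Ifi27), again beside 12.1%. Ifi27 stood at 165 against 76.3 CPM (120 and 86 UMIs, ratio 2.17, 1.63 to 2.89) and was 2.20 without the rich cells. Isg15 stood at 41.3 against 5.32 CPM, and at 18.2 CPM without the rich cells (ratio 3.41, 1.21 to 10.9). Irf9, the DNA-binding partner of Stat2, stood at 22.0 against 6.21 CPM (ratio 3.55, 1.38 to 10.2). Rsad2 went from 51.0 to 1.40 CPM in the Lcn2 group once the rich cells were out, below the 6.21 CPM of the other group.

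**Figure D4:**
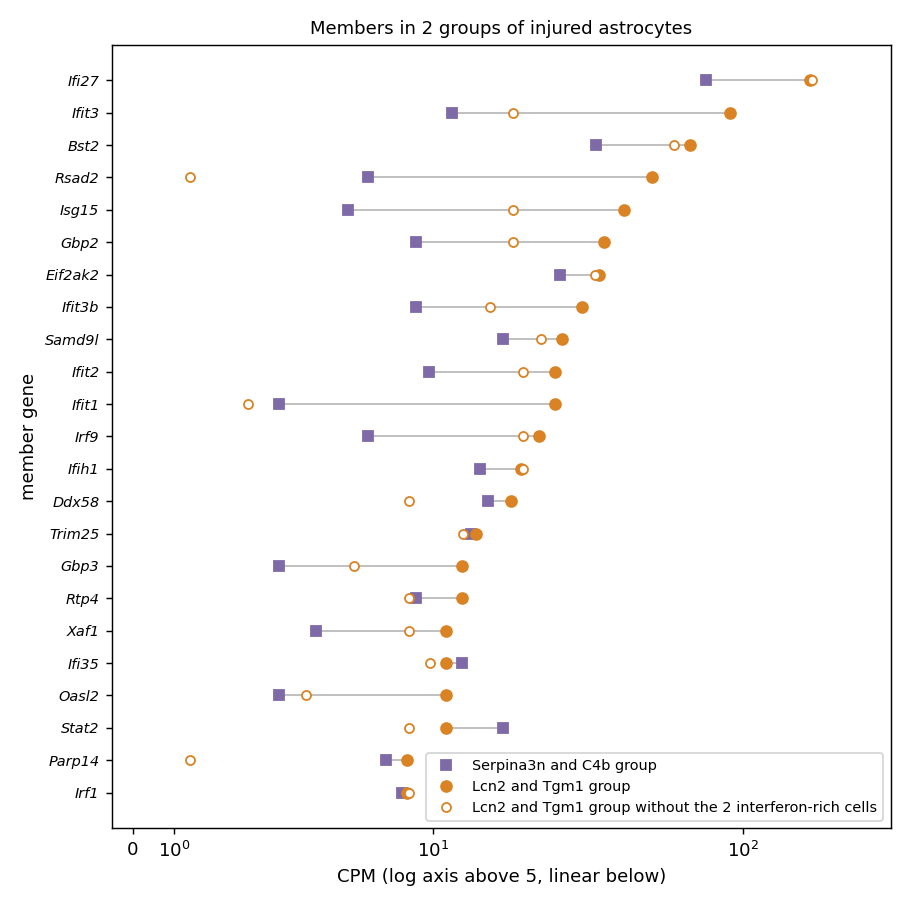
Level of each of 23 members (CPM, log axis above 5 and linear below) in the Serpina3n and C4b group (squares, 144 cells) and the Lcn2 and Tgm1 group (filled circles, 163 cells) of injured astrocytes, with open circles for the latter without its 2 rich cells. Ifi27 and Irf9 keep their place without these cells, whereas Rsad2 and Ifit1 fall below the squares.

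Microglia-like cells also carried macrophage markers, 7 of which summed to 9741 CPM injured and 3626 CPM uninjured, mostly Lyz2 (9015 and 2651 CPM). Ccr2 and Ly6c2 had no UMI in the uninjured cells, so the share of macrophages may differ between the libraries, which was not tested. In this class, Bst2 was the leading member in the injured library and Irf1 in the uninjured one. Irf1, a transcription factor that interferon gamma induces, had 121 UMIs in the injured and 36 in the uninjured library, or 64.0 and 308 CPM, a ratio of 0.208 (0.142 to 0.311). Bst2 stood at 256 against 128 CPM (483 and 15 UMIs, ratio 1.99, 1.20 to 3.59), and Ifi27 at 81.0 against 128 CPM (153 and 15 UMIs). Of 29 members with 10 or more UMIs, 12 were 2-fold higher, against 23.6% of all genes, and 4 lower (Irf1, Rtp4, Xaf1 and Oas1a), against 17.2%. For 9 of the 12, among them all 4 of the IFIT family, Stat2, Oasl2 and Zbp1, the 31 uninjured cells held 0 UMIs, and with a floor of 3 UMIs over that group none of these folds was bounded above 1. Without the rich cell 6 of 24 were higher, beside 23.4% of all genes, and 5 lower, beside 17.3%, so that the share of higher members was then near that of all genes. In male cells 6 of 22 were higher, beside 22.6%, and 2 lower (Irf1 and Ifi35), beside 18.6%, while Irf7 (1.20), Xaf1 (0.940) and Rtp4 (0.855) were within 2-fold and Rsad2 had 4 against 1 UMI.

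Endothelial-like cells had high levels in both conditions and no member 2-fold higher in the injured library among 25 tested, beside 14.4% of all genes, while 5 were lower, beside 10.9%. Their leading members were Irf1, at 196 against 226 CPM (147 and 24 UMIs), Ifi27, at 328 against 198 CPM (246 and 21 UMIs, ratio 1.66, 1.06 to 2.73), and Bst2, at 147 against 170 CPM (110 and 18 UMIs). The 5 that were lower were Rsad2 (12 and 9 UMIs, ratio 0.189, 0.0730 to 0.507), Rtp4 (30 and 16, 0.265), Irf7 (17 and 8, 0.301), Eif2ak2 (33 and 11, 0.425) and Ifi35 (49 and 15, 0.462). The 26 uninjured cells included 2 rich cells, and without them 4 members were lower, beside 11.2% of all genes, and 3 higher (Ddx58, Usp18 and Ifit3), beside 14.9%. These 3 had 45 and 2, 20 and 1, and 35 and 2 UMIs, and each interval included 1. Irf7 was then within 2-fold, at a ratio of 0.561 (0.183 to 2.29). In male cells Irf7 turned to 39.5 against 30.2 CPM (10 and 2 UMIs, ratio 1.31, 0.279 to 12.3), Ifi35 was within 2-fold at 0.562 and Rsad2 had 5 and 3 UMIs. There 2 of 22 members were lower, beside 11.6%, and 4 higher (Ifih1, Usp18, Ifi27 and Irf9), beside 13.4%. Among these lower and higher members, only the interval of Ifi27 (1.30 to 5.36) left out 1.

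In fibroblast-like cells 5 of 22 members were 2-fold higher (Bst2, Xaf1, Oasl2, Ifih1 and Zbp1), beside 14.5% of all genes, and 2 lower (Stat2 and Gbp3), beside 13%. The intervals of Xaf1 (25 and 4 UMIs), Ifih1 (14 and 1), Zbp1 (11 and 2) and Gbp3 (5 and 7) included 1. Ifi27 stood at 272 against 164 CPM (196 and 54 UMIs, ratio 1.65, 1.22 to 2.28), Bst2 at 92.9 against 42.6 CPM (67 and 14 UMIs, ratio 2.18, 1.21 to 4.20), with 36 of the 67 UMIs in 1 cell, and Irf1 at 116 against 192 CPM (84 and 63 UMIs, ratio 0.607, 0.433 to 0.856). Stat2 was lower here as in astrocyte-like cells, at 22.2 against 51.8 CPM (16 and 17 UMIs, ratio 0.429, 0.203 to 0.902). In male cells Bst2 turned to 36.5 against 62.8 CPM (9 and 14 UMIs, ratio 0.581, 0.222 to 1.44) and Stat2 was within 2-fold at 0.753 (0.292 to 1.90). There 6 of 14 members were higher (Oasl2, Samd9l, Xaf1, Ifi27, Irf9 and Ifit3), beside 13.6%, and none lower, beside 12.8%. These male cells numbered 12 injured and 50 uninjured, and the intervals of Xaf1, Irf9 and Ifit3 included 1. The summed ratio without Ifi27 was 1.08 (0.918 to 1.28), so that the difference of the sum lay largely in this gene.

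In ependymal-like cells, which line the central canal, 6 of 18 members were 2-fold higher (Ifi27, Ifit1, Ifit3, Xaf1, Trim25 and Samd9l), beside 15.3% of all genes, and Stat2 alone was lower, beside 11.9%. Each of the 6 had at most 1 UMI in the 31 uninjured cells, and every interval included 1. For Ifit1, 18 of the 19 injured UMIs lay in 1 cell, and for Ifit3 7 of the 15. In male cells 5 of 12 were higher (the same genes without Xaf1), beside 15.2%, and 3 lower (Stat2, Ddx58 and Irf1), beside 11.7%. Gbp2 led in the injured library and was level, at 33.04 against 31.5 CPM (56 and 5 UMIs). Stat2 stood at 13.6 against 44.2 CPM (23 and 7 UMIs, ratio 0.307, 0.128 to 0.848). Isg15 had no UMI in either library, with upper Poisson bounds of 2.18 CPM injured and 23.3 CPM uninjured.

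The OPC-like cells, not compared between libraries because only 14 were uninjured, were dominated by Ifi27, with 387 of 692 member UMIs injured and 33 of 47 uninjured (380 and 348 CPM). Irf1 followed at 64.8 CPM and Ifit2 at 45.1 CPM in the injured library. In the injured mural-like cells Ifit1 led with 38 UMIs, 33 of them in the rich cell, then Ifi27 with 30 and Ifit3 with 21. The unnamed cells stood at 130 CPM injured and 283 uninjured.

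**Figure D5:**
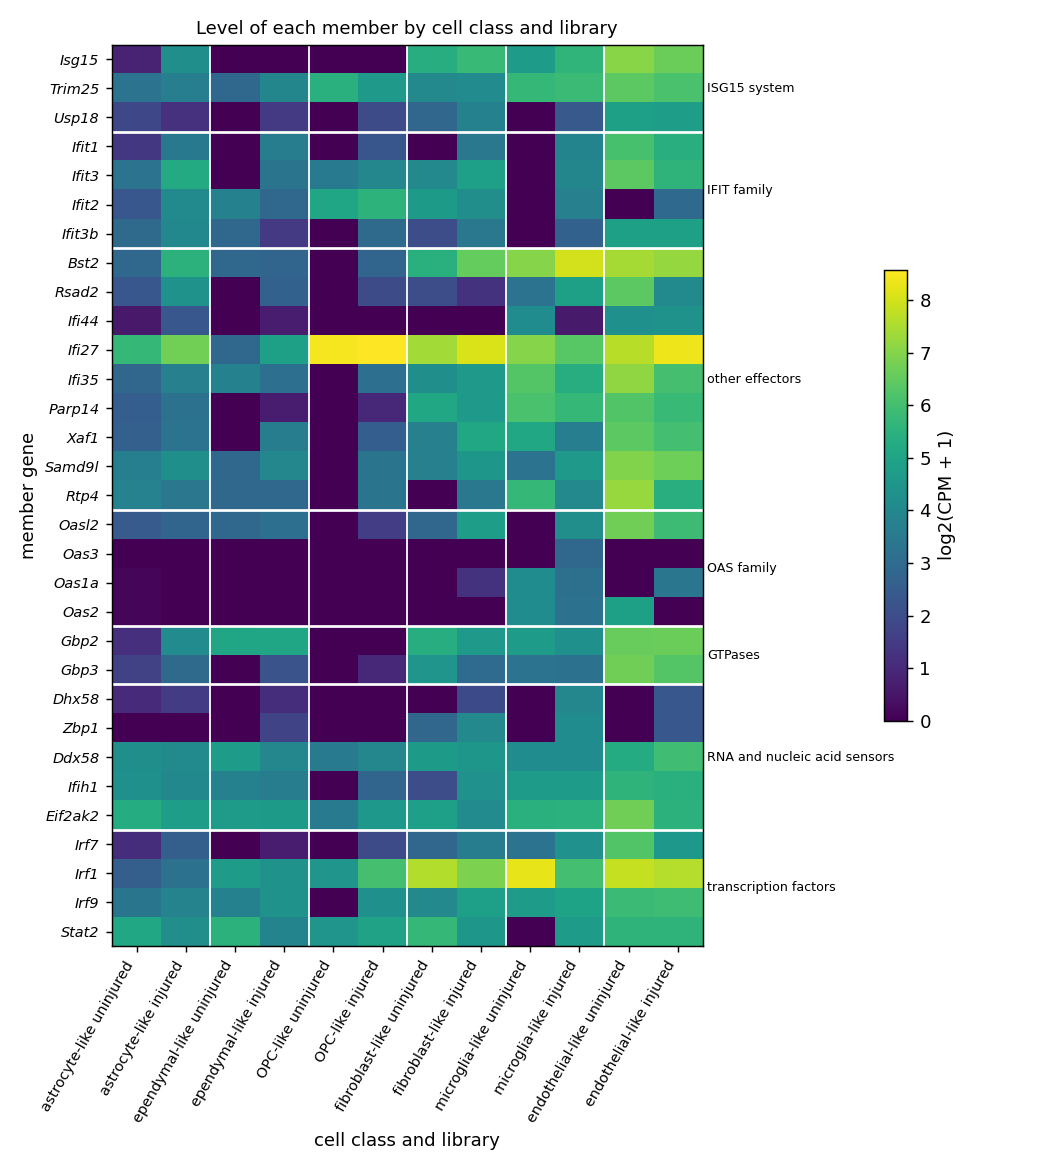
Level of each of the 31 members, as log2(CPM + 1), in the 6 classes with at least 14 cells in each library, grouped by role; the dark cells are 0. Ifi27 is bright in most classes and brightest in OPC-like cells, Irf1 is brightest in uninjured microglia-like cells at 308 CPM, and the Oas genes other than Oasl2 are dark in astrocyte-like and ependymal-like cells.

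The rest of the pathway was read in the astrocyte-like cells from a list by role. The 10 interferon ligand genes had at most 1 UMI in either library. Of the receptors, Ifnar2 stood at 81.9 against 38.7 CPM (181 and 400 UMIs, ratio 2.11, 1.76 to 2.53) and its partner Ifnar1 at 29.0 against 26.9 CPM (64 and 278 UMIs, ratio 1.08). The type II receptor chains Ifngr1 (38.9 against 28.6 CPM) and Ifngr2 (14.0 against 8.04 CPM) had ratios of 1.36 (1.06 to 1.74) and 1.74 (1.12 to 2.66). Il10rb stood at 10.9 against 6.68 CPM and Ifnlr1 had 1 UMI in each library.

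None of the 3 kinases was 2-fold apart in astrocyte-like cells. Jak1 was lower at 128 against 172 CPM (283 and 1777 UMIs, ratio 0.744, 0.654 to 0.844), Jak2 stood at 27.1 against 30.6 CPM and Tyk2 at 14.0 against 12.5 CPM. In microglia-like cells Jak1 stood at 277 against 1001 CPM (523 and 117 UMIs, ratio 0.277, 0.226 to 0.341), the only one of the 3 that was 2-fold apart there.

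Of the 46 other interferon-stimulated genes, 14 were 2-fold higher in injured astrocyte-like cells, 1 (Trim21) lower and 18 within, with 13 under 10 UMIs, beside the same 13.3% and 8.87% of all genes. Those past 4-fold with at least 30 UMIs were Ifitm3 (240 against 55 UMIs, 109 and 5.33 CPM, ratio 20.4, 15.2 to 27.8) and Ifitm2 (66 against 35 UMIs, 29.9 and 3.39 CPM, ratio 8.81), membrane proteins that hinder virus entry. Both were as high without the rich cells, with ratios of 22.1 and 8.44. B2m and Psmb8, which serve antigen presentation and were picked after their values were seen, stood at 223 against 75.0 CPM (ratio 2.98) and 15.4 against 4.75 CPM (ratio 3.24). Of the 12 genes of nucleic acid sensing, such as Mavs and Tbk1, 8 were within 2-fold and 4 had under 10 UMIs.

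Cells with and without a detected reporter barcode were also compared, since both conditions carried the virus. In the injured library 249 barcode-positive astrocyte-like cells held 497 CPM of members and 158 negative ones 389 CPM, a ratio of 1.28 (1.08 to 1.51), which was 0.997 (0.841 to 1.19) without the 2 rich cells, both of which were barcode-positive. Positive cells were deeper, at a median of 5215 against 2114 UMIs. In the uninjured library the values were 260 and 272 CPM in 509 and 2340 cells, a ratio of 0.958 (0.873 to 1.05), and the 4 rich cells there had no barcode UMI.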

How the data were processed

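The deposited files hold UMI counts per gene and cell, which the authors made from the reads with Cell Ranger (8.0.1 in the submitters' processing notes, 7.1.0 in the matrix header, genome mm10). Whether intronic reads were counted is not given in the sources used here. Cells with 500 to 50000 gene UMIs were kept, after the study's methods, which removed 40 injured cells. Doublets were not removed except in an alternative. After scaling to 10000 UMIs, 2000 variable genes without 112 interferon genes, 15 components and Leiden clustering at resolution 0.5 (scanpy 1.11.5, igraph 0.11.9), clusters were named from 14 marker lists. The naming rule was set with the matrices in hand. UMIs were summed per class and library. Intervals are exact (scipy 1.17.1), and a member counts as 2-fold apart when its log2 ratio with 1 CPM added is at least 1 and it has 10 UMIs. With 1 library per condition no test was run. Members with 30 or more UMIs over all kept cells were given individually in astrocyte-like cells, the 3 highest in other classes, and pathway genes when past 4-fold with 30 UMIs or when a receptor or kinase. Some items of the lists are not reported here. Members past 2-fold in other classes were named after their values were seen. Members and lists were chosen with earlier results of these data known. The counting of calls was tested on simulated data, in which summed counts of each gene were drawn independently. UMIs concentrated in single cells were not part of that simulation. Columns of other samples numbered 0.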

Additional observations from a re-analysis of the deposited data

Results flagged for a closer look

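Injury ratios that point in different directions in different cell classes were picked out, and none of these differences was tested, since each condition had 1 library. The summed ratio was 1.77 in astrocyte-like and 1.20 in fibroblast-like cells, both with intervals above 1. It was 0.782 in endothelial-like cells, with an interval below 1. There it was 0.878 (0.759 to 1.02) without 2 rich cells and turned to 1.07 (0.889 to 1.30) in male cells. The fibroblast-like ratio turned to 0.621 without limits on UMIs per cell. Irf7 had a ratio of 4.28 in astrocyte-like and 0.301 in endothelial-like cells, but the latter was 0.561 without 2 rich cells and turned to 1.31 in male cells. Rsad2 had 5.00 and 0.189 in the same order, and Ifi35 had 2.00 and 0.462, the latter 0.562 in male cells. The uninjured endothelial-like class is 26 cells, and 2 of them hold 43 of its 254 member UMIs, while 35 of the 45 Rsad2 UMIs of injured astrocyte-like cells lie in 1 cell.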

How the results depend on the processing

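The limits are those of 1 library per condition: depth, sex composition and animals differ along with injury, no replicate could be left out, and most members had under 100 UMIs in a class. No paired analysis was possible because there is only 1 library for each condition, hence no test. The astrocyte-like ratio of 1.77 stayed above 1 in all 19 alternatives (1.19 to 1.92), and the endothelial-like ratio below 1 in all 17 with 20 cells a library (0.625 to 0.878). For single members in astrocyte-like cells, 373 values under alternatives stayed within the counting interval, 50 left it and 2 more reversed a difference of 2-fold. In all, 12 of these 425 values changed sign, in 9 members: Irf9, Oasl2 and Xaf1 at resolution 1.0, Ifit3b, Ifih1 and Gbp3 in male cells, Irf1, Ifih1, Xaf1, Parp14 and Trim25 after thinning, and Oasl2 without the rich cells. The cause of each shift below was not tested.

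Without a cell filter the fibroblast-like ratio turned to 0.621 and its injured level over astrocyte-like cells to 0.979. At resolution 1.0, where the Lcn2 group is no longer named, the astrocyte-like ratio was 1.19, injured levels over astrocyte-like cells were 5.84 endothelial-like, 0.866 ependymal-like, 2.93 fibroblast-like and 3.07 microglia-like, 7 members were higher and 1 lower, and 0% of thinned injured cells had 3 members; with that group counted in, the ratio was 1.66. In male cells the ratio was 1.53, injured levels were 5.58 endothelial-like, 0.740 ependymal-like and 2.37 microglia-like, uninjured fibroblast-like 3.47, 6 members were higher, the share was 0%, and Ifit3b (-0.0026), Gbp3 (-0.81) and Ifih1 (0.36) changed sign on the log2 scale. Without rich cells, an alternative added after seeing the data, the ratio was 1.49, injured levels were 4.83 endothelial-like, 0.716 ependymal-like and 2.43 fibroblast-like, and 6 members were higher. With the mean of per-cell CPM the ratio was 1.91, injured levels 0.515 ependymal-like and 1.65 fibroblast-like, uninjured fibroblast-like 2.44, and the microglia-like ratio 1.09. Thinning gave 1.92 astrocyte-like, 0.625 endothelial-like and 3 members lower. Leaving out the top 1% of cells gave 1.54, cells with microglial UMIs 0.485 for injured ependymal-like, and Ifi27 0.679 ependymal-like and 2.46 microglia-like. With 10 CPM added 5 members were higher, at 4-fold 5, and at 1.5-fold 2 were lower. Shares of cells with 2 members were 5.90% and 2.91% astrocyte-like (injured, uninjured) and 49.3% injured endothelial-like; with 5 members 0.144% uninjured astrocyte-like, 4.48% and 19.2% endothelial-like; thinned to 2000 UMIs 6.42% and 1.49% astrocyte-like and 50% injured endothelial-like; at own depth 24.3%, 6.53%, 85.7% and 88.5%.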

Other observations

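Among 46 other interferon-stimulated genes outside the list, 5 of 36 with 10 or more UMIs were 2-fold higher and 6 lower in injured endothelial-like cells (13.9% and 16.7%), beside 14.4% and 10.9% of all genes. In fibroblast-like cells 4 of 26 were higher and 3 lower (15.4% and 11.5%), beside 14.5% and 13%, so that both shares of higher genes were near those of all genes. In ependymal-like cells 8 of 19 were higher and 4 lower, beside 15.3% and 11.9%. Single genes of the Ifitm family, which hinders virus entry, stood far apart. In fibroblast-like cells Ifitm1 had 809 UMIs in the injured and 62 in the uninjured library, or 1122 and 189 CPM, a ratio of 5.94 (4.59 to 7.82, counting error only). In ependymal-like cells Ifitm2 had 221 against 1 UMI, a ratio of 20.7 (3.67 to 820). In microglia-like cells Ifitm1 had 89 against 0 UMIs and was at least 1.84-fold higher, taking a floor of 3 UMIs over the uninjured group.

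Of 40 such genes with 10 or more UMIs, 15 were 2-fold higher and 3 lower in injured microglia-like cells, beside 23.6% and 17.2% of all genes. Lgals3bp, a secreted glycoprotein (186 against 2 UMIs, ratio 5.75, 1.57 to 47.9), and Psmb10, a subunit of the immunoproteasome (149 against 2 UMIs, ratio 4.61, 1.25 to 38.4), were past 4-fold there. Ifi209, Dtx3l, Parp12 and Uba7 had 33, 48, 41 and 42 UMIs against 0, and at the floor none of these was bounded above 1. The same holds for Psmb10 in ependymal-like cells, with 30 against 0 UMIs, while Parp12 in endothelial-like cells, at 31 against 1, had a ratio of 4.39 (0.731 to 179). The 31 uninjured microglia-like and 26 uninjured endothelial-like cells set these limits.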
